A study of Homo sapiens with 22 samples.

Results

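The HOX genes with a number as their only suffix were followed in 11 neuroblastoma cell lines, each grown in hypoxia and in normoxia. Of the 39 such genes in the RefSeq table, 28 had a probeset that names no other gene, and these are 28 of the 19775 genes that could be read in this way. They comprise 1 HOXA gene, 10 HOXB genes, 9 HOXC genes and 8 HOXD genes, each read by its probeset with the highest mean log2 signal. The other 10 HOXA genes and HOXD3 were not analysed here, so the HOXA cluster is represented by HOXA2 alone.

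HOX genes encode homeodomain transcription factors that tell cells where they lie along the head-to-tail axis of the embryo. In humans they are packed into the clusters HOXA on chromosome 7, HOXB on chromosome 17, HOXC on chromosome 12 and HOXD on chromosome 2, and the order of the genes in a cluster follows the order of the body regions in which they are switched on, low numbers towards the head and high numbers towards the tail. Neuroblastoma arises from sympathetic precursors of the neural crest, a migratory cell population whose HOX genes record the level of the neural tube it left, and retinoic acid, which makes many neuroblastoma cells differentiate, is a classical inducer of the clusters.

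RNA was taken from cells kept in hypoxia (1% O2) or in normoxia (20% O2) for 18 hours and hybridized to 22 arrays of the Affymetrix HG-U133 Plus 2.0 type, with 1 culture and 1 array for each line in each condition. The lines were GI-LI-N, ACN, SHEP-2, SK-N-BE2(C), IMR-32, SK-N-F1, LAN-1, SK-N-SH, GI-ME-N and SHEP21N in 2 states. SHEP21N carries a MYCN transgene that tetracycline silences. It was grown without tetracycline and labelled as overexpressing MYCN (named SHEP21N_MYC), or with tetracycline at 50 ng/mL and labelled as not overexpressing it (named SHEP21N). No tetracycline is given for the other lines. SHEP-2 and the SHEP21N states are related, so the 11 lines are not 11 independent tumors, and with 1 culture per line and condition the p-values measure the spread between these arrays.

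Signals are linear, in arbitrary units, scaled by the authors to a target of 500 per array, and array medians lay between 69.4 and 133.6. VEGFA, DDIT4 and BNIP3, well-known hypoxia targets read as a check of the labels, were higher in hypoxia in 11 of 11 lines. MYCN lay between 33350 and 67627 in GI-LI-N, SK-N-BE2(C), IMR-32, LAN-1 and SK-N-SH, at 6119 in hypoxia and 5788 in normoxia in SK-N-F1, and at or below 55.3 in the other lines. The SHEP21N_MYC arrays, at 6 in hypoxia and 19 in normoxia, were therefore as low as the SHEP21N arrays at this probeset. SHEP cells derive from SK-N-SH, yet the arrays labelled SK-N-SH had this high MYCN and were more like IMR-32 (r = 0.957 over the line means of all genes) than SHEP-2 (r = 0.769). SHEP-2 and the SHEP21N cells came from a laboratory and the other lines from a cell line collection. The normoxic array of SHEP21N_MYC had a 3′/5′ ratio of 67.3 for GAPDH and 94.0 for ACTB, against at most 1.40 and 5.05 on the other 21 arrays, and the smallest signal on each of the 4 SHEP21N arrays was 3.3, against 0.803 or less elsewhere.

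The number of arrays limits the precision, and in bulk RNA fewer cells with a transcript and less of it per cell cannot be told apart. A HOX gene was counted as expressed in a line when its signal was at least 100 on both arrays of that line. The lines fell apart by cluster. HOXC and HOXD genes were expressed in every line, whereas the HOXB cluster was expressed as a block in ACN, SHEP-2, SHEP21N_MYC and SHEP21N and was nearly silent elsewhere. In total 143 of 308 pairs of a line and a HOX gene were expressed (46.4%), against 55.1% of the pairs over all genes. The shares were 18.2% for HOXA2 (2 of 11 pairs), 28.2% for HOXB (31 of 110 pairs), 52.5% for HOXC (52 of 99 pairs) and 65.9% for HOXD (58 of 88 pairs).

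**Figure D1:**
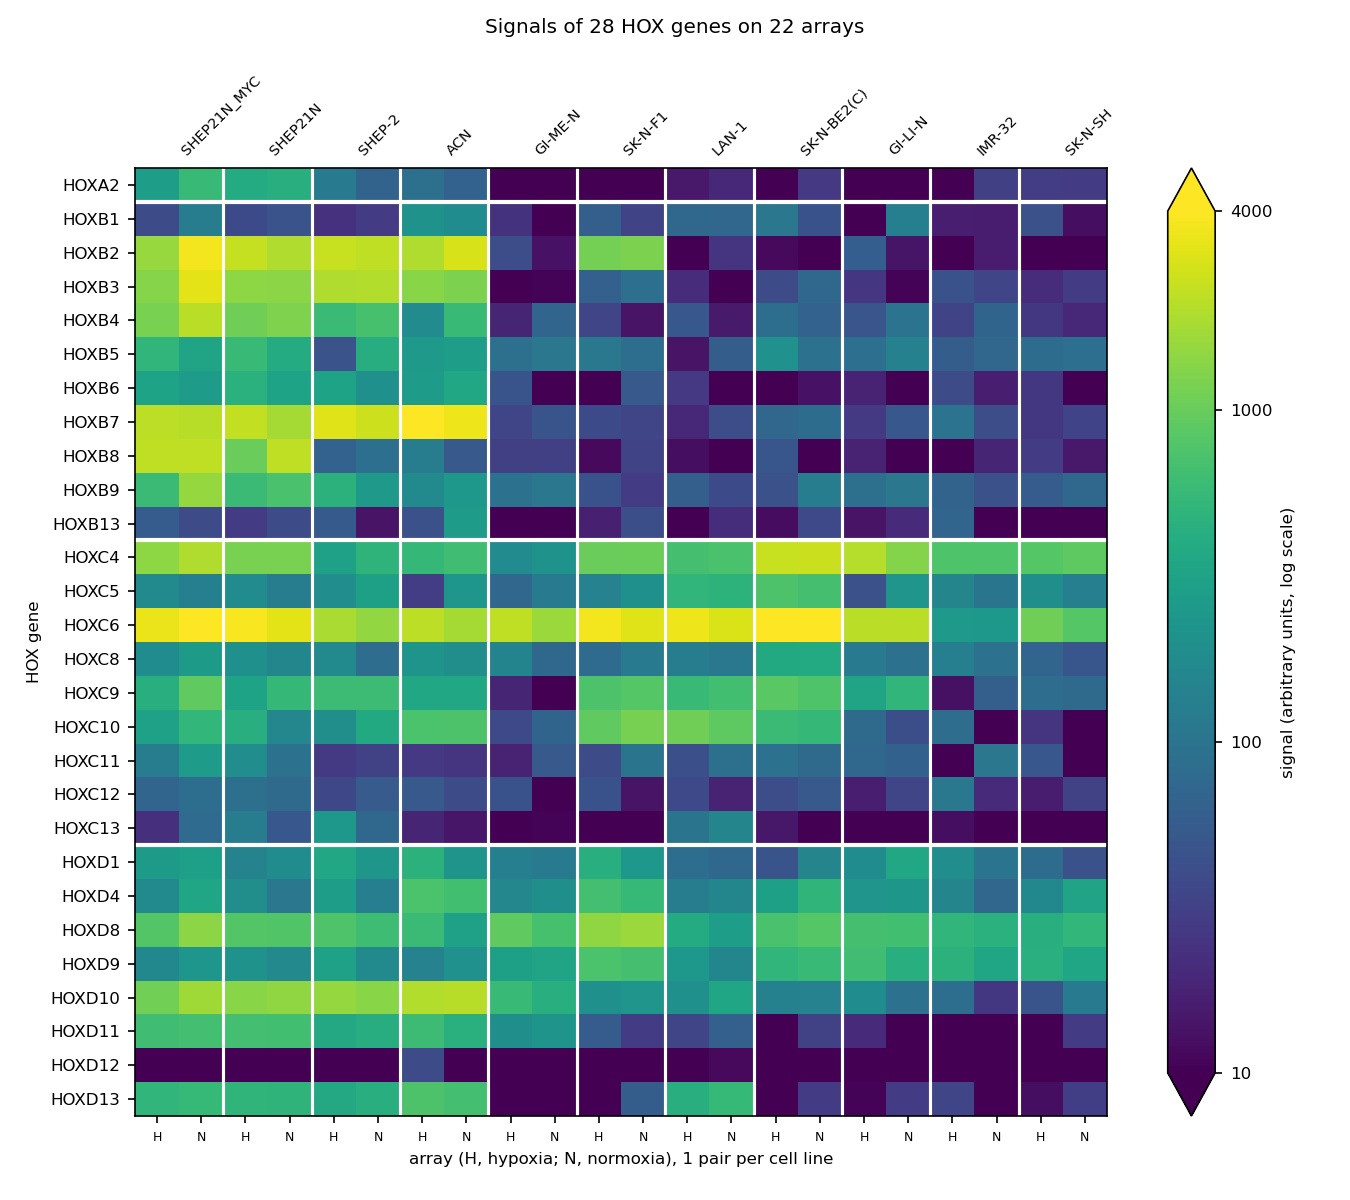
Signals (arbitrary units, log colour scale) of the 28 HOX genes (rows, by cluster and number) on 22 arrays (columns, hypoxia left of normoxia within each line). HOXB2, HOXB3, HOXB4, HOXB6, HOXB7 and HOXB9 are above 100 on both arrays in SHEP21N_MYC, SHEP21N, SHEP-2 and ACN, and of the whole HOXB cluster SK-N-F1 shows only HOXB2.

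The richest sets were those of SHEP21N_MYC with 23 of 28 genes, SHEP21N with 22, ACN with 20 and SHEP-2 with 18. LAN-1 expressed 12, SK-N-F1 11, SK-N-BE2(C) 10, GI-ME-N 8, GI-LI-N 7, and IMR-32 and SK-N-SH 6 each. Over all genes the same limit was met by 57.3% in SHEP21N_MYC, 56.9% in SHEP21N, 55.5% in ACN, 56.7% in SHEP-2, 52.5% in LAN-1, 54.6% in SK-N-F1, 55.3% in SK-N-BE2(C), 52.8% in GI-ME-N, 55.9% in GI-LI-N, 55.1% in IMR-32 and 53.4% in SK-N-SH. The HOX share of SHEP21N_MYC was 82.1% and that of IMR-32 and SK-N-SH 21.4%. SHEP21N_MYC and SHEP21N shared 22 genes, which are 95.7% of the first set and 100% of the second, and HOXC11 was the gene that only SHEP21N_MYC counted. SHEP21N had 190.6 in hypoxia and 96.3 in normoxia for HOXC11, so it missed the limit on 1 array.

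**Figure D2:**
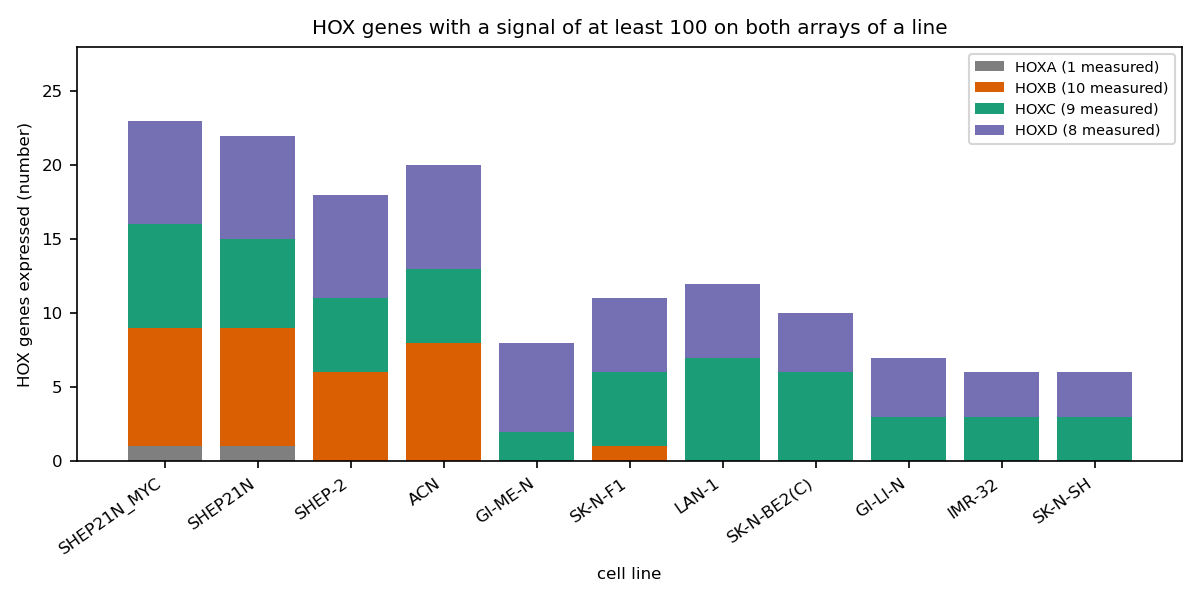
Number of HOX genes with a signal of at least 100 on both arrays (vertical axis), stacked by cluster, in each of the 11 cell lines. SHEP21N_MYC, SHEP21N, SHEP-2 and ACN have 8, 8, 6 and 8 HOXB genes, SK-N-F1 has 1 and the other 6 lines have 0.

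In the HOXD cluster, genes close to each other had very different patterns, from HOXD8, expressed in 11 lines, through HOXD10 in 8 and HOXD11 in 5, to HOXD12 in none. Their promoters are shown because they set these patterns side by side and because HOXD10 and HOXD11 followed each other most closely of all HOX pairs. Each runs from 250 bases before to 50 bases after the RefSeq start of the gene, on the plus strand of GRCh38.p14. Capitals mark ACGTG, the core of the element bound by hypoxia-inducible factors, which is also contained in the E-box CACGTG bound by MYC family proteins, and TGATNNAT, a site for HOX proteins with their PBX partners, each on either strand.
HOXD8, chr2:176129455-176129754: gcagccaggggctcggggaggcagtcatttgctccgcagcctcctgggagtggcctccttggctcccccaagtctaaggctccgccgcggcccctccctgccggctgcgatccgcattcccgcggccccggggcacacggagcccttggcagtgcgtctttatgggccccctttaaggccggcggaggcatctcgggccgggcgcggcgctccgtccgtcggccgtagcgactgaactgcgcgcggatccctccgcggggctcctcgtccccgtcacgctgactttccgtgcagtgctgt
HOXD10, chr2:176116528-176116827: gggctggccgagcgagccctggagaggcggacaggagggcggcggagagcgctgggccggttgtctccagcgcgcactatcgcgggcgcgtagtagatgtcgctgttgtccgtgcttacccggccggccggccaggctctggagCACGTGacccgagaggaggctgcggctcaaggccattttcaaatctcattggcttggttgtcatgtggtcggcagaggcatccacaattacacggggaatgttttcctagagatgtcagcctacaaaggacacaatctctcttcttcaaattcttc
HOXD11, chr2:176107030-176107329: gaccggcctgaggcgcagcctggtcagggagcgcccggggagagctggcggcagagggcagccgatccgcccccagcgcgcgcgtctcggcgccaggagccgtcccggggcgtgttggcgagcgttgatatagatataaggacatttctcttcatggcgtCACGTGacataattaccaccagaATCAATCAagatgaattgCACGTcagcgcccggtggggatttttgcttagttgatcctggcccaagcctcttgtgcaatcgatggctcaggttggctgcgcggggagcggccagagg
HOXD12, chr2:176099545-176099844: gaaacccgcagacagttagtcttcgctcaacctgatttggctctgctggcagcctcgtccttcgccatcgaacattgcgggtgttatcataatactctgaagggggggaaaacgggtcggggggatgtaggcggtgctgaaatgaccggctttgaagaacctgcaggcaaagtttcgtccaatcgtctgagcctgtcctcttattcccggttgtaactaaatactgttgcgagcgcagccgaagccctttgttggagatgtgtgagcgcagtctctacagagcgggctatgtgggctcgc

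Promoter sequences were matched for 11 of the 28 genes, 7 of them HOXD genes, and HOXC4 and HOXC5 share 1 window. CACGTG stood in 4 of the 7 HOXD promoters (HOXD1, HOXD10, HOXD11 and HOXD13) and in 0 of the other 4, against 7.26% of 35116 human promoters of the same length. ACGTG stood in 8 of the 11 promoters, against 21.4% of all. TGATNNAT stood in 3 of the 11 (HOXA2, HOXB1 and HOXD11), against 7.4% of all, and the windows of HOXD8 and HOXD12 held none of these motifs. The HOXD8 window held 34 CpG, that of HOXD11 27, that of HOXD10 23 and that of HOXD12 19, against a median of 14 over all promoters.

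Some HOX genes were common to all lines. HOXC4, HOXC6, HOXD8 and HOXD9 were expressed in 11 of 11 lines, 4 of 28 genes, against 38% of all genes. HOXC6, a gene of the thoracic level, had its highest signals in SK-N-BE2(C), at 6759 in hypoxia and 6502 in normoxia, and its lowest in IMR-32, at 251 in hypoxia and 242 in normoxia. The median over the 11 lines was 2256 in hypoxia and 2147 in normoxia. IMR-32 therefore stood far below the next line, SK-N-SH, which had 1097 in hypoxia and 823 in normoxia. HOXC4, a gene of the neck and upper trunk, ranged from 178 to 2417 in hypoxia (median 821) and from 211 to 2504 in normoxia (median 915), with GI-ME-N lowest and SK-N-BE2(C) highest in both conditions. HOXD8 lay between 396 and 1467 in hypoxia (median 708) and between 285 and 1616 in normoxia (median 655). HOXD9, which patterns the lower spine in the mouse, lay between 141 and 740 in hypoxia (median 309) and between 158 and 685 in normoxia (median 335), and for both genes SK-N-F1 was the highest line.

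HOXB13, HOXC12 and HOXD12, genes of the tail end of the body, were expressed in no line, 3 of 28, against 23.6% of all genes. HOXD12, a limb and digit gene, had a highest signal of 40.2 in hypoxia and 11.6 in normoxia. HOXC12 reached 109 in hypoxia and 87 in normoxia. HOXB13, known from the prostate, reached 71.3 in hypoxia and 269 in normoxia, the last on the ACN array, whose hypoxic partner had 44.5. All 3 genes thus stayed below the limit in every line on at least 1 array.

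The HOXB cluster gave the clearest split between lines. HOXB2, HOXB3, HOXB4, HOXB6, HOXB7 and HOXB9 were expressed in all of ACN, SHEP-2, SHEP21N_MYC and SHEP21N. HOXB7, a trunk gene often studied in tumors, had 2223 in hypoxia and 2089 in normoxia in SHEP21N_MYC, 2289 in hypoxia and 1789 in normoxia in SHEP21N, 2962 in hypoxia and 2528 in normoxia in SHEP-2, and 3959 in hypoxia and 3457 in normoxia in ACN. In the other 7 lines its highest signal was 97.5. The lowest expressing array was thus 18.4-fold above the highest of the other arrays, and the 3 probesets of HOXB7 gave the same 4 lines.

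HOXB2, a hindbrain patterning gene, differed from its neighbours in that SK-N-F1 expressed it too. SK-N-F1 had 1136 in hypoxia and 1236 in normoxia for HOXB2, while its HOXB3 signals were 62.5 in hypoxia and 89.3 in normoxia. In the expressing lines HOXB2 had 1590 in hypoxia and 3561 in normoxia in SHEP21N_MYC, 2380 in hypoxia and 1972 in normoxia in SHEP21N, 2408 in hypoxia and 2253 in normoxia in SHEP-2, and 1951 in hypoxia and 2752 in normoxia in ACN. The gap to the highest other array (59.6) was 19.1-fold. HOXB3, its neighbour, lay between 1348 and 1958 in hypoxia and between 1214 and 3098 in normoxia in the expressing lines, with a gap of 13.6-fold to the other arrays, while its second probeset met the limit in SHEP-2 alone. The upper end of both ranges in normoxia came from the SHEP21N_MYC array with the high 3′/5′ ratios. Its part in these values was not tested, but both genes were as clearly on in SHEP21N.

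HOXB8, which in the mouse is used in blood cells and in the spinal cord, was restricted further. It had 2266 in hypoxia and 2249 in normoxia in SHEP21N_MYC, and 1006.5 in hypoxia and 2251 in normoxia in SHEP21N. In SHEP-2 HOXB8 was at 65.1 under hypoxia and 90.1 under normoxia, and the highest signal outside the SHEP21N lines was 124, in hypoxic ACN. The second HOXB8 probeset had a highest signal of 197 and met the limit in no line, so this pattern rests on 1 probeset. HOXA2, which gives the second pharyngeal arch its identity, was restricted in the same way, with 287 in hypoxia and 568 in normoxia in SHEP21N_MYC, 395 in hypoxia and 426 in normoxia in SHEP21N, and at most 118 elsewhere. The SHEP21N arrays also differ from SHEP-2 in their lowest signal, so line and array processing cannot be told apart here.

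HOXB4, known for its use in expanding blood stem cells, was at 180 in hypoxia and 570 in normoxia in ACN and at 596 or above on all 6 SHEP arrays. HOXB6 lay between 201.2 and 459 and HOXB9 between 172 and 1542 on the expressing arrays. The 1542 came from the normoxic SHEP21N_MYC array with the high 3′/5′ ratios. The second HOXB6 probeset met the limit in SHEP21N_MYC alone (highest signal 126.7, r = 0.74 with the brighter one). The second HOXB9 probeset gave the same 4 lines as the brighter one. HOXB5, a gene of gut innervation, met the limit in ACN and both SHEP21N lines, and missed it in SHEP-2, with 46.2 in hypoxia and 418 in normoxia. Its second probeset counted SHEP-2 as well. HOXB1, an early hindbrain gene, met the limit in ACN alone, at 214 in hypoxia and 185 in normoxia. Its second probeset met the limit in no line (highest signal 164, r = 0.35 with the brighter one).

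**Figure D3:**
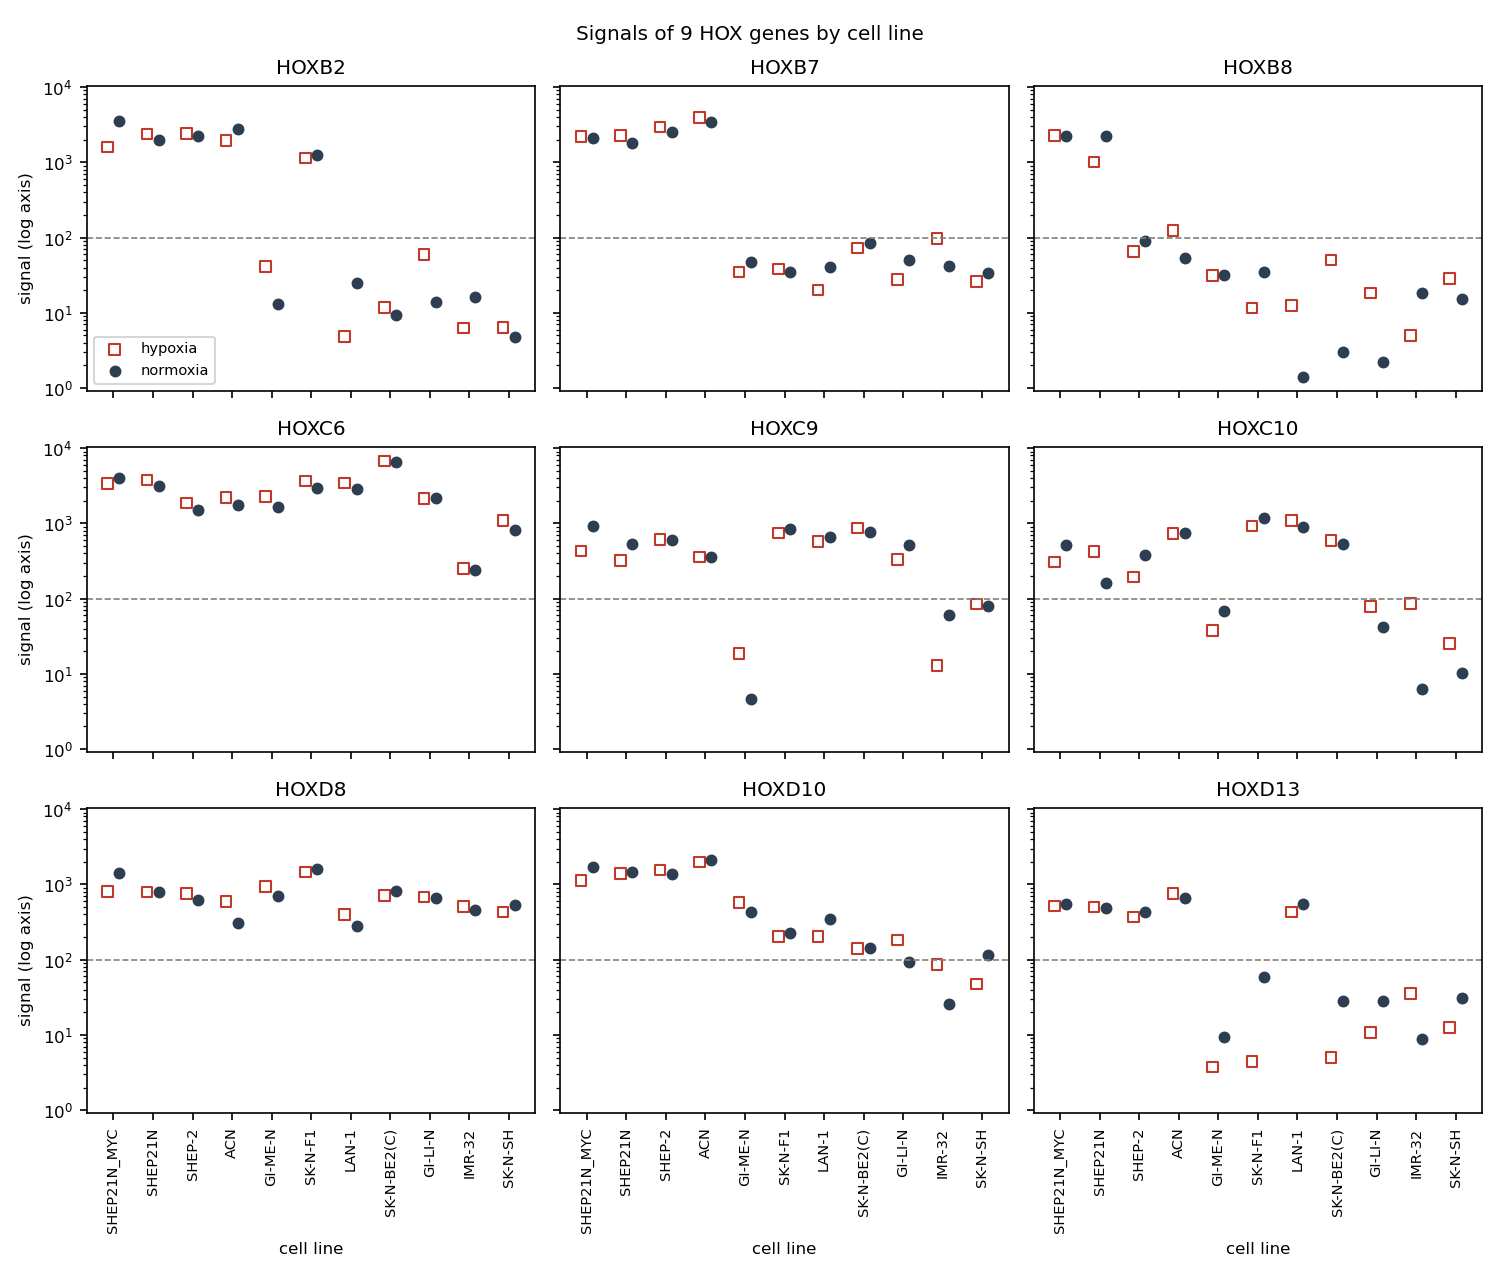
Signals (log axes, arbitrary units) of 9 HOX genes in the 11 cell lines, hypoxia as open squares, normoxia as filled circles, with the limit of 100 as a dashed line. HOXB7 separates ACN and the SHEP lines from the rest by 18.4-fold, HOXC6 and HOXD8 are above the limit in every line, and HOXD13 is also expressed in LAN-1.

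In the HOXC cluster the split ran between other lines. HOXC9, a thoracic gene that takes part in the retinoic acid response of neuroblastoma cells, was expressed in 8 lines and missing in IMR-32, SK-N-SH and GI-ME-N. On the expressing arrays it lay between 324 and 866 in hypoxia and between 362 and 919 in normoxia. IMR-32 had 13.0 in hypoxia and 61.1 in normoxia, SK-N-SH 85.2 in hypoxia and 79.8 in normoxia, and GI-ME-N 18.5 in hypoxia and 4.70 in normoxia. The groups did not overlap and were 3.80-fold apart at the nearest arrays.

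HOXC10, a gene of the lumbar level, was expressed in the same lines as HOXC9 except GI-LI-N, which had 79.0 in hypoxia and 42.1 in normoxia. It was highest in LAN-1, with 1101 in hypoxia and 895 in normoxia, and in SK-N-F1, with 928 in hypoxia and 1182 in normoxia. HOXC8 met the limit in ACN, SK-N-BE2(C), LAN-1 and the SHEP21N lines, but its arrays in expressing and other lines overlapped (lowest expressing array 110, highest other array 177). HOXC5 met it in 8 lines, again with overlap, and its highest signals were those of SK-N-BE2(C), at 746 in hypoxia and 679 in normoxia, and LAN-1, at 521 in hypoxia and 480 in normoxia. HOXC4, HOXC5 and HOXC6 share the RefSeq start at base 54016888 of chromosome 12 (GRCh38.p14).

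At the tail end of the HOXC cluster signals were low. HOXC13, a gene of hair and nails, met the limit in LAN-1 alone, at 101.4 in hypoxia and 151 in normoxia, whereas its highest single signal was 244 on the hypoxic array of SHEP-2, whose normoxic array had 74.3. HOXC11 met it in SHEP21N_MYC alone, at 127 in hypoxia and 275 in normoxia.

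In the HOXD cluster the number of expressing lines did not follow gene order strictly. HOXD4 met the limit in 10 lines and HOXD1, used in mouse pain-sensing neurons, in 8, with expressing arrays between 107 and 727 for HOXD4 and between 101.1 and 473 for HOXD1. The second HOXD1 probeset met the limit in no line (highest signal 77.1) and that of HOXD4 in SHEP-2 alone (r = 0.44 with the brighter one), so each count rests on 1 probeset. HOXD10, a gene of hindlimb motor neurons in the mouse, was highest in ACN and the SHEP lines. It had 1126 in hypoxia and 1699 in normoxia in SHEP21N_MYC, 1395 in hypoxia and 1472 in normoxia in SHEP21N, 1550 in hypoxia and 1367 in normoxia in SHEP-2, and 1991 in hypoxia and 2116 in normoxia in ACN. GI-ME-N followed with 576 in hypoxia and 425 in normoxia, and SK-N-F1, LAN-1 and SK-N-BE2(C) lay between 140 and 347 on all arrays. The other 3 lines overlapped with these, up to 184 in hypoxic GI-LI-N, so HOXD10 had a high group and no clean lower limit.

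HOXD11, a forearm and kidney gene, was expressed in the same 5 lines that led for HOXD10. GI-ME-N had 197 in hypoxia and 222 in normoxia, the other 4 lines lay between 376 and 670, and no array of another line exceeded 63.3. HOXD13, the digit gene whose mutation fuses fingers and toes, was expressed in ACN, SHEP-2, the SHEP21N lines and LAN-1. It had 429 in hypoxia and 551 in normoxia in LAN-1, 759 in hypoxia and 662 in normoxia in ACN, and between 371 and 558 on the 6 SHEP arrays. GI-ME-N, with 3.76 in hypoxia and 9.49 in normoxia, did not express HOXD13 although it expressed HOXD10 and HOXD11. The other HOXD13 probesets met the limit in 2 lines (ACN and LAN-1) and in 3 (SHEP-2 as well), and those of HOXD10 in 1 and 3 lines. HOXD12, which lies between HOXD11 and HOXD13 on the chromosome, was expressed in none of these lines.

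Differences between lines were tested with an F-test over the cell lines. Its error is the spread between the hypoxic and the normoxic array of a line around the mean hypoxia effect. It asks whether any line differs from another and does not test the groups of lines described above. By limma with Benjamini-Hochberg adjustment over all genes, 22 of 28 HOX genes differed between lines, against 64.2% of all genes. All 22 were among the 25 HOX genes expressed in at least 1 line, and of the 15105 such genes in all 80% differed. HOXB7 had an adjusted p of 2.94e-07 by limma, HOXC6 of 3.28e-07, HOXB2 of 3.41e-06, HOXD10 of 2.76e-05 and HOXD13 of 0.000214. HOXB1, HOXB13, HOXC11, HOXC12, HOXD1 and HOXD12 did not pass, and 5 of these 6 met the limit in at most 1 line. The exception is HOXD1 (adjusted p = 0.0590 by limma).

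Of the 21 HOX genes expressed in some but not all lines, 13 had expressing arrays that did not overlap with the other arrays (61.9%), against 42.1% of all such genes. The gap was at least 5-fold for 5 of them, HOXB2, HOXB3, HOXB7, HOXB8 and HOXD13 (23.8%), against 5.59%. These counts are a description, since the groups were formed by the signal itself.

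The limit of 100 left some cases close to it. The lower array of a pair lay between 100 and 200 in 35 pairs and between 50 and 100 in 34 pairs. Just inside were HOXD1 in IMR-32 (101.1), HOXC13 in LAN-1 (101.4) and HOXC5 in IMR-32 (102.2), and just outside HOXC11 in SHEP21N (96.3), HOXB5 in SK-N-BE2(C) (94.9) and HOXC8 in IMR-32 (94.0). With a limit of 200 the 6 lines without HOXB genes still had 0, and ACN, SHEP-2, SHEP21N_MYC and SHEP21N had 5, 6, 8 and 8. With a limit of 50 those 6 lines had 1 to 3 HOXB genes each. With the array median as the limit GI-ME-N had 2 and LAN-1 and SK-N-SH had 1, while GI-LI-N, SK-N-BE2(C) and IMR-32 had 0.

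The lines also differed in the markers of the neuroblastic and the mesenchymal, substrate-adherent cell state. Of 7 neuroblastic markers measured, GI-LI-N, SK-N-BE2(C), IMR-32, SK-N-F1, LAN-1 and SK-N-SH expressed 6 or 7, with summed signals between 37243 and 75400 in hypoxia and between 34607 and 70704 in normoxia. SHEP21N_MYC, SHEP21N, SHEP-2, ACN and GI-ME-N expressed 1 to 3, with sums between 305 and 3963 in hypoxia and between 409 and 3564 in normoxia. PHOX2A and DBH met the limit in none of these 5 lines and in all of the first 6. TH also met it in none of these 5, but of the first 6 only SK-N-BE2(C), SK-N-F1 and LAN-1 expressed it. GATA3 and ISL1 did not separate the groups, being expressed in every line but ACN. HAND2 was also expressed in GI-ME-N and SHEP21N, and CHGA in ACN. The 8 mesenchymal markers were expressed by 6 or 7 in the first 6 lines, with sums between 21509 and 51422 in hypoxia and between 15519 and 42421 in normoxia, and by 7 or 8 in the other 5, with sums between 62151 and 167626 in hypoxia and between 65838 and 151902 in normoxia. The lines with the HOXB block are 4 of these 5. GI-ME-N, the fifth, had 3 neuroblastic and 8 mesenchymal markers and 0 HOXB genes, and SK-N-F1 had 7 neuroblastic markers and HOXB2. Single mesenchymal markers did not all follow the sums, and VIM gave 113311 of the 167626 in hypoxic ACN. TWIST1 was highest in SK-N-BE2(C), GI-LI-N, SK-N-SH and IMR-32, between 7137 and 12284 in hypoxia. In ACN, GI-ME-N and the SHEP lines it lay between 1333 and 4690, and SK-N-F1 and LAN-1 fell in that range. COL1A1 met the limit in every line but ACN. The part of the cell state in the HOX pattern was not tested.

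HOX genes were compared with each other by Pearson's r of the line means of log2 signal over the 11 lines, as a description, for the 20 genes expressed in at least 3 lines. The median r was 0.55 over 57 pairs within clusters and 0.18 over the pairs between them. By cluster it was 0.82 within HOXB, 0.43 within HOXC and 0.21 within HOXD. Between clusters it was 0.33 for HOXB with HOXD, above the value within HOXD, 0.15 for HOXC with HOXD and 0.14 for HOXB with HOXC. The closest pairs within a cluster were HOXD10 with HOXD11 (r = 0.98), HOXB6 with HOXB7 (0.97) and HOXB3 with HOXB7 (0.95). Between clusters they were HOXB7 with HOXD10 (0.82), HOXB2 with HOXD10 (0.81) and HOXB6 with HOXD11 (0.81). The SHEP lines share a source, so these r rest on fewer than 11 independent lines.

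**Figure D4:**
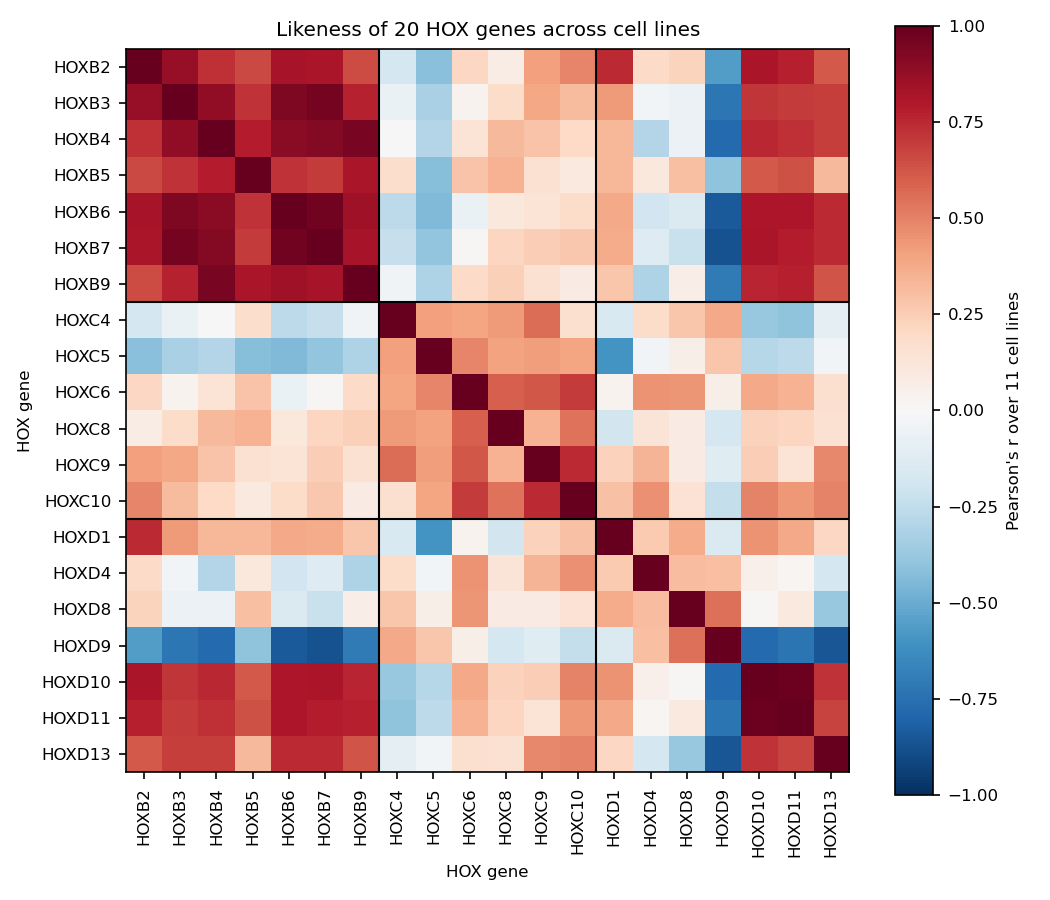
Pearson's r between 20 HOX genes (both axes, by cluster and number) over the line means of 11 cell lines, blue for negative and red for positive. The HOXB genes shown, which leave out HOXB1, HOXB8 and HOXB13, form a block with a median r of 0.82. HOXD10, HOXD11 and HOXD13 run with this block, and HOXD9 runs against it, at -0.87 with HOXB7.

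HOXD9 ran with some genes of its cluster and against others. Its r was 0.55 with HOXD8 and 0.30 with HOXD4, -0.85 with HOXD13 and -0.78 with HOXD10, and the lowest r of all pairs was that of HOXB7 with HOXD9, -0.87. HOXD9 was lowest in ACN, with 141 in hypoxia and 208 in normoxia, and low in SHEP21N_MYC, with 162 in hypoxia and 233 in normoxia. It was highest in SK-N-F1, with 740 in hypoxia and 685 in normoxia, and GI-LI-N, with 630 in hypoxia and 424 in normoxia. The second HOXD9 probeset met the limit in no line and had an r of -0.19 with the brighter one, so the HOXD9 pattern rests on 1 probeset.

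Lines with like arrays still differed in single HOX genes. The lines IMR-32, GI-LI-N and SK-N-SH correlated at 0.954 to 0.957 over the line means of all genes and at 0.88 to 0.89 over the 28 HOX genes. HOXC9 was expressed in GI-LI-N, at 334 in hypoxia and 515 in normoxia, and in neither IMR-32 nor SK-N-SH. HOXC6 also differed, with 2154 in hypoxia and 2147 in normoxia in GI-LI-N, against the lowest signals of all lines in IMR-32. The arrays labelled SK-N-SH and SHEP-2 shared 6 HOX genes, which are 100% of the SK-N-SH set and 33.3% of the SHEP-2 set, and correlated at 0.37 over the HOX genes. SHEP21N_MYC and SHEP21N correlated at 0.98.

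Hypoxia over normoxia was compared within each line, so that the large differences between lines cancel. No HOX gene passed the test for a change with hypoxia. In a limma fit blocked on cell line, adjusted over all genes by Benjamini-Hochberg, 0 of 28 HOX genes were higher and 0 were lower, against 0.147% and 0.0152% of all 19775 genes (0.162% in either direction). At an unadjusted p under 0.05 there was 1 HOX gene, against 10.7% of all genes, and the smallest adjusted p of a HOX gene by limma was 0.457. The mean change over the 11 lines was above 0 for 13 HOX genes and below 0 for 15, with a median of -0.04 on the log2 scale, the same as the median of -0.04 over all genes.

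The 6 HOX genes with the smallest p were HOXA2, HOXC6, HOXD13, HOXC8, HOXD12 and HOXC5. HOXC6 is the one of them that was well measured in all lines. Its log2 change was 0.17 (standard error 0.09, 95% interval -0.03 to 0.36, adjusted p = 0.531 by limma), which bounds its mean fold change between 0.982 and 1.29. It was higher in hypoxia in 7 of 11 lines after division by the array median, and in 10 of 11 with the values as deposited. After that division 1.79% of all genes expressed in every line were higher in at least 10 of 11. HOXC6 did not reach that count after the division, and no such share is given for the values as deposited. HOXC8 differed by 0.25 on the log2 scale (standard error 0.16) and was higher in 8 of 11 lines, and HOXC5 had -0.48 (standard error 0.35) and was higher in 6 of 11 lines, so its mean and its count of lines differ in sign.

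For HOXC5, HOXC8 and the remaining genes the largest differences lay in lines that do not express the gene. HOXC5 had -3.00 in ACN and -2.44 in GI-LI-N on the log2 scale, against a median of 0.25 in its 8 expressing lines. ACN had 29.4 in hypoxia and 230 in normoxia, and GI-LI-N 43.8 in hypoxia and 229 in normoxia. They missed the limit on the hypoxic array alone, so the change itself put them outside the expressing lines. HOXC8 had 1.16 in SHEP-2, with 177 in hypoxia and 84.8 in normoxia, against a median of 0.13 in its 5 expressing lines. With signals below 50 set to 50 the mean changes were -0.39 for HOXC5 and 0.25 for HOXC8. HOXA2 differed by -0.89 on the log2 scale (standard error 0.40, adjusted p = 0.457 by limma), and its most negative values were those of SK-N-BE2(C), with 3.34 in hypoxia and 27.0 in normoxia, SK-N-F1, with 0.966 in hypoxia and 6.70 in normoxia, and IMR-32, with 4.95 in hypoxia and 31.1 in normoxia. With signals below 50 set to 50 its change was -0.01. HOXD13 differed by -0.81 on the log2 scale (standard error 0.44), which became -0.09 with that floor, and in the 5 lines that express it the median change was 0.01. HOXD12 had 0.61 (standard error 0.41) at signals of at most 40.2, and -0.03 with the floor.

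**Figure D5:**
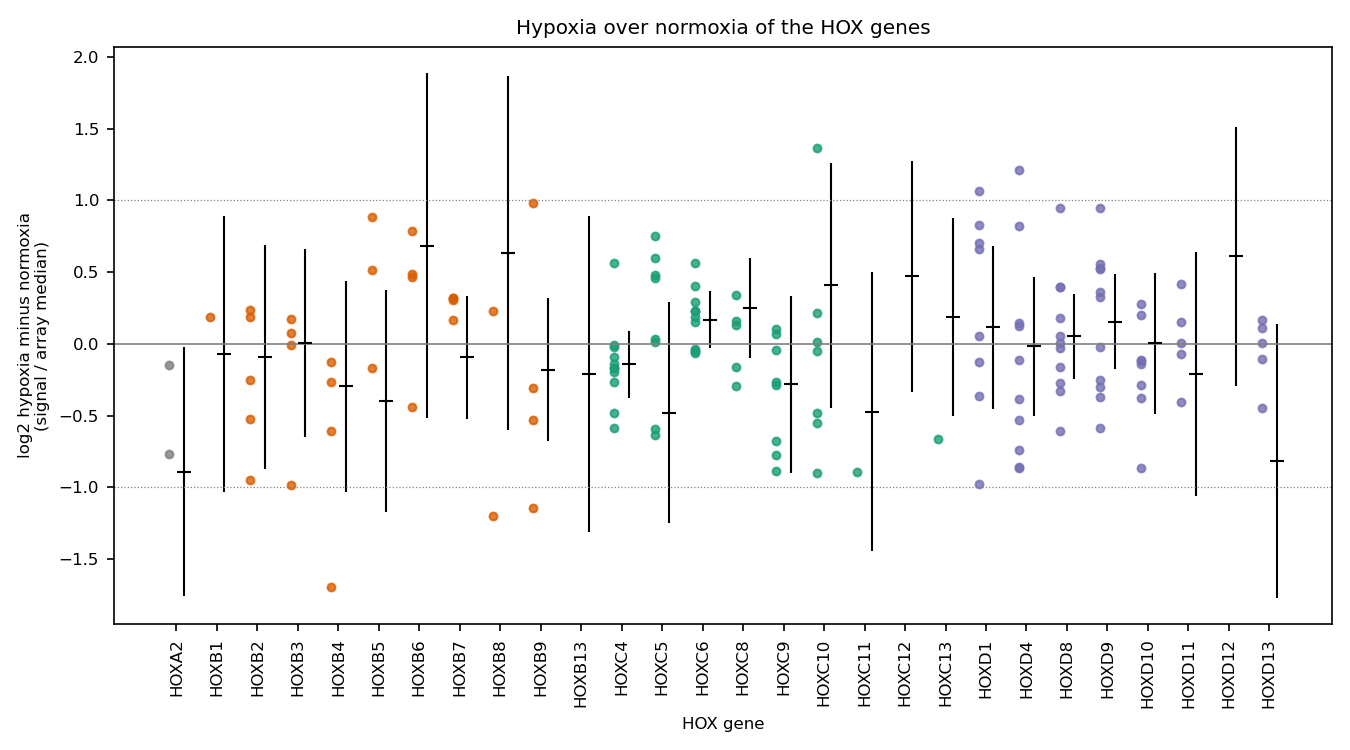
Log2 hypoxia minus normoxia (signal over array median) of the 28 HOX genes, coloured points for each line that expresses the gene and a black bar for the limma mean over all 11 lines with its 95% interval. Dotted lines mark 2-fold, which 6 of 143 points reach, and every interval but that of HOXA2 includes 0.

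Within the expressing lines the changes went both ways. Only pairs with a signal of at least 100 on both arrays count here. A gene that crossed the limit between the arrays of a line is left out, which narrows the changes that can be seen. Of the 143 expressed pairs, 67 were higher and 76 lower in hypoxia, with a median log2 change of -0.03, against -0.06 over the expressed pairs of all genes. Without SHEP21N_MYC, whose normoxic array had the high 3′/5′ ratios, 59 were higher and 61 lower, with a median of -0.01. By cluster, 16 pairs were higher and 15 lower for HOXB, 22 and 30 for HOXC, and 29 and 29 for HOXD. The median size of the change regardless of direction was 0.31 on the log2 scale, against 0.27 for all genes. A change of at least 2-fold was seen in 6 of the 143 pairs (4.20%), against 4.33% of the expressed pairs of all genes.

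These 6 were spread over as many genes. HOXC10 in SHEP21N had 424 in hypoxia and 160 in normoxia, HOXD4 was at 281 in hypoxic and 130 in normoxic SHEP-2, and HOXD1 in ACN had 473 in hypoxia and 221 in normoxia. HOXB4 in ACN had 180 in hypoxia and 570 in normoxia, HOXB8 in SHEP21N had 1006.5 in hypoxia and 2251 in normoxia, and HOXB9 in SHEP21N_MYC had 599 in hypoxia and 1542 in normoxia. None of these has a repeat array, so a change in a single line has no replicate check. In SHEP21N_MYC, HOXB8 had 2266 in hypoxia and 2249 in normoxia, and HOXC10 had 307 in hypoxia and 523 in normoxia, so neither large change of SHEP21N was seen in its sister culture. These values and the HOXB9 change involve the normoxic SHEP21N_MYC array with the high 3′/5′ ratios. In SHEP21N_MYC 14.8% of all expressed genes changed at least 2-fold, against 7.72% in SHEP21N. The comparison therefore cannot decide whether the SHEP21N changes recur.

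A few genes went the same way in nearly all of their lines. HOXB7 was higher in hypoxia in 4 of its 4 lines, by 0.17 to 0.32 on the log2 scale, as were 8.8% of all genes expressed in 4 lines. HOXB4 was lower in 4 of its 4 lines, by -0.13 to -1.69, as were 7.57% of such genes. HOXC4 was lower in 10 of its 11 lines, and in 9 of 11 with the values as deposited, while 7.37% of all genes expressed in every line were lower in at least 10. None of the 3 genes passed the test over all genes (adjusted p by limma 0.901 for HOXB7, 0.798 for HOXB4 and 0.681 for HOXC4).

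HOX proteins bind DNA with partners of the TALE homeodomain class, the PBX, MEIS and PKNOX proteins. Of 9 such cofactors 8 were measured, 5 of them expressed in every line (38% of all genes were), and 0 passed the test for hypoxia (0.162% of all genes did) while 8 differed between lines by limma (64.2% of all genes did, and 80% of those expressed in at least 1 line). MEIS1 was highest in GI-LI-N (13499 in hypoxia, 11313 in normoxia), SK-N-SH (10657 in hypoxia, 12047 in normoxia) and IMR-32 (11632 in hypoxia, 11274 in normoxia), and lowest in ACN, SHEP-2 and GI-ME-N, between 247 and 353 on all arrays. MEIS2 was highest in SK-N-BE2(C), at 18288 in hypoxia and 16069 in normoxia, and in the SHEP21N lines, between 8372 and 12960 on all arrays. PBX3 ranged from 419 to 4535 in hypoxia and from 605 to 4059 in normoxia, with SHEP-2 lowest and SK-N-F1 highest in both.

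Of 32 regulators of HOX genes 29 were measured, of which 0 passed the test for hypoxia, against 0.162% of all genes, and 5 had an unadjusted p under 0.05 there, against 10.7%. Between lines 24 of the 29 differed by limma, against 64.2% of all genes. The 5 that did not differ were those expressed in no line. All 24 regulators expressed in at least 1 line thus differed, against 80% of such genes. RARA, a retinoic acid receptor, differed by 0.41 on the log2 scale (standard error 0.11, adjusted p = 0.244 by limma) and was higher in 9 of 11 lines. The CDX genes CDX1, CDX2 and CDX4, which switch on tail-side HOX genes in the embryo, were expressed in no line, and neither were ALDH1A2, which makes retinoic acid, and CYP26A1, which degrades it. CYP26B1, another retinoic acid hydroxylase, ranged from 7.18 to 2427 in hypoxia and from 1.54 to 1222 in normoxia. The Polycomb genes EZH2, EED and SUZ12, whose complex keeps silent HOX clusters off, were expressed in every line. EZH2 differed by -0.25 on the log2 scale (standard error 0.09, adjusted p = 0.376 by limma), EED by -0.27 (standard error 0.10, adjusted p = 0.350 by limma), and KDM6B, a demethylase that removes the Polycomb mark, by 0.63 (standard error 0.16, adjusted p = 0.196 by limma), higher in 10 of 11 lines. GMNN, an inhibitor of replication licensing that also binds HOX proteins, had -0.38 (standard error 0.09, adjusted p = 0.187 by limma) and was lower in 11 of 11 lines. None of these passed the adjusted limit.

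Of 12 genes that flank the clusters, 11 were measured, 0 passed the test for hypoxia, against 0.162% of all genes, and 8 differed between lines by limma, against 64.2% of all genes and 80% of those expressed in at least 1 line. Of the 2 flank genes expressed in no line, TTLL6 was among the 8 and EVX1 was not. Beside HOXB, CALCOCO2 was expressed in 11 lines and TTLL6 in none, and SKAP1 met the limit in SHEP21N alone. Beside HOXA, SKAP2 was expressed in ACN, the 3 SHEP lines, GI-ME-N and SK-N-F1, and HIBADH in all 11. Beside HOXC, CALCOCO1, SMUG1 and CBX5 were expressed in all 11 lines, and beside HOXD the same held for LNPK and MTX2.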

How the data were processed

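RNA of 22 cultures was read on Affymetrix HG-U133 Plus 2.0 arrays. The authors deposited 1 intensity per probeset and array, a linear signal made with MAS5 per the submitters' processing notes and scaled to 500, and 0 columns of sample values were left unused. Of 54675 probesets, 41097 name 1 gene, 1801 several and 11777 none in the table used here. Each gene was read by its brightest single-gene probeset, signals were divided by the array median and log2 values were fitted in R 4.3.3 by limma 3.58.1, blocked on cell line, with Benjamini-Hochberg adjustment over 19775 genes at 0.05. Tables and figures were made in Python 3.11.15, and the fit was tested on simulated data. The 2 arrays of a line form a pair by design, since they come from the same cell line: their deviations from the condition means correlated at 0.525 to 0.693, against a median of -0.146 and a highest value of 0.590 between lines, and 10 of 11 hypoxic arrays were most like their own partner. Every member is accounted for, statistics for hypoxia are given for the 6 genes with the smallest p, and the 3 closest pairs within and between clusters are named. The members and lists were chosen with earlier results of these data known. Alternatives changed the scaling, a floor, the probeset rule, the signal limit, the test and the lines included. Promoters come from RefSeq on GRCh38.p14.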

Additional observations from a re-analysis of the deposited data

How the results depend on the processing

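The count of HOX genes that passed the test for hypoxia was 0 in the main analysis and under all 22 alternatives, among them the fit with no replicate block (0 HOX genes, 4 of all genes), the methods' t-test paired over 11 lines (0 after adjustment, 1 before it) and the fits that left out 1 cell line, which ranged from 0 to 0. At an unadjusted p under 0.05 there were 0 to 2, and the lowest adjusted p of any HOX gene by limma or another test was 0.287. Over all genes the calls moved more, 32 in the main analysis, 2 with the similar arrays of IMR-32, GI-LI-N and SK-N-SH averaged and 105 by the methods' t-test. HOXD12 was 0.61 on the log2 scale and -0.029 with signals below 50 set to 50 (adjusted p = 0.895 by limma), all of its signals being below 50. The median HOX change was -0.04, and ranged from -0.08 to 0.05 when 1 line was left out, the highest without SHEP21N_MYC. The count that differed between lines was 22, 27 with the floor, 19 without both SHEP21N lines, and 19 to 22 with 1 line left out (19 without SK-N-F1), the last set chosen after seeing the data. Expressed HOXA pairs were 2, and 4 with a limit of 50. All expressed pairs were 143, and 177 with a limit of 50, 108 with 200, 152 above the array median and 144 with any probeset. Leaving out the replicate block changed no call of a HOX gene.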
